A study of Mus musculus with 5 samples.

Results

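The 10 genes described here are ones that cells switch on within minutes to hours of a stimulus or of stress, measured in single neurons of the mouse cochlea. They were 8 immediate early transcription factor genes (Fos, Fosb, Jun, Junb, Jund, Egr1, Atf3 and Ier2) and 2 heat shock genes (Hspa1a and Hspa1b), taken by name, and all 10 were among the 14715 genes measured. RNA came from 1954 spiral ganglion neurons, which carry sound signals to the brain, taken from mice of both sexes on postnatal days 30 to 33. The CKO neurons came from 3 samples of mice carrying floxed Runx1 (Runx1F/F) with the transgene bhlhb5-Cre/+ and the tdTomato reporter Ai14/+, and the Control neurons from 2 samples with bhlhb5-Cre/+ and Ai14/+ alone. Runx1 is a transcription factor, and bhlhb5 regulatory sequence drove Cre. In every sample, tissue was digested with collagenase and papain, tdTomato-positive cells were sorted, and 3′ ends of RNA were counted by unique molecular identifier (UMI).

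Immediate early genes need no new protein to be transcribed, because the factors that switch them on are already in the cell and are activated by calcium, cAMP, MAP kinase or stress kinase signals. Fos and Jun family proteins pair to form AP-1, Egr1 is a zinc finger factor induced by activity, and Atf3 is a stress and axon injury factor that rises in sensory neurons after their axon is cut. Hspa1a and Hspa1b encode the inducible HSP70 chaperones, switched on by heat shock factor when proteins unfold. Cutting and enzymatic digestion of tissue are known to induce genes of both groups. All samples went through digestion and sorting, and no undigested tissue was analysed here, so RNA made in the animal and RNA made during dissociation cannot be told apart.

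The promoters of 8 of the 10 genes were matched in RefSeq (GRCm38.p6), and Egr1 and Ier2 were not. Those of 4 genes are shown, as the 250 bases before the start site, 5′ to 3′ on the gene's strand. The first 2 belong to the activity gene Fos (chr12:85473640-85473889, plus strand) and the injury gene Atf3 (chr1:191183334-191183583, minus strand), with the cAMP response element core TGACG (or CGTCA on the other strand) in capitals, and for Fos also the TATA box.
Fos: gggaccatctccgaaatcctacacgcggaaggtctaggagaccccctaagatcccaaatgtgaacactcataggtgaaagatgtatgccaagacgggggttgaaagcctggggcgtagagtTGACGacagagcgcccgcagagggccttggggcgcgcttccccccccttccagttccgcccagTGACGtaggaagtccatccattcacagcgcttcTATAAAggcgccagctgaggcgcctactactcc
Atf3: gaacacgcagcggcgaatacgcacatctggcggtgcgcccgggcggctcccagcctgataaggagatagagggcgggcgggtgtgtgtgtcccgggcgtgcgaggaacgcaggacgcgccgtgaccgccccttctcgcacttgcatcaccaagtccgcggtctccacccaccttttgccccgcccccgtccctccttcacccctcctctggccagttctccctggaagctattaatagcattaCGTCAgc
The cAMP response element core lay in 4 of the 8 promoters (Fos, Fosb, Junb and Atf3), against 17.8% of all 32851 RefSeq promoter windows of this length. In Fos its copies began 129 and 66 bases before the start site, and in Atf3 it began 7 bases before. Start sites are those of RefSeq and can differ from GENCODE. The Atf3 window lies inside the GENCODE gene span given below. The Jund window (chr8:70697489-70697738, plus strand) ends before the GENCODE start of that gene at 70698949. The other 2 are those of the HSP70 pair, Hspa1a (chr17:34972157-34972406) and Hspa1b (chr17:34959239-34959488), both on the minus strand. Capitals mark the paired heat shock unit GAANNTTC and the CCAAT box, read here as ATTGG.
Hspa1a: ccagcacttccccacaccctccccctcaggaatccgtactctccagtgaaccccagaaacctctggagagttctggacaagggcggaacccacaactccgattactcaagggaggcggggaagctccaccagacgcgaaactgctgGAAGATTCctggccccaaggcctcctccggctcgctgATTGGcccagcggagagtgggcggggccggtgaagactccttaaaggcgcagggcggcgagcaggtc
Hspa1b: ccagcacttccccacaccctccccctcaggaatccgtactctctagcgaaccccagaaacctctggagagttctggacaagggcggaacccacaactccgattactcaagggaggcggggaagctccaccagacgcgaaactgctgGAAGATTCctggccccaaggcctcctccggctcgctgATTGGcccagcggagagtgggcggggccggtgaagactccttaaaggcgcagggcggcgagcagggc
These promoters were 98.8% identical, with 3 differences from Hspa1a to Hspa1b, C44T, T47C and T249G, counted from 1 at the 5′ end of the sequences shown. The paired unit GAANNTTC was found in 3 of 8 promoters (Hspa1a, Hspa1b and Jun), against 6.69% of all, and the CCAAT box in 4 (the same 3 and Junb), against 33.8%. The HSP70 pair, near copies of each other, are not independent in these counts. The full cAMP response element TGACGTCA (1.55% of all promoters), the AP-1 site TGACTCA (4.46%), the serum response element (1.47%) and the heat shock element of 3 units (0.466%) were found in 0 of the 8 windows. Bases farther than 250 from the start site were not searched, so these genes may hold such elements outside the windows. TATAAA was found in Fos and in 7.59% of all. Both strands were searched, the full cAMP element and its core can overlap, and a match is a letter match, not a measured site. The transcripts of the HSP70 pair shared 0 of 451 windows of 50 bases within their last 500 bases, so counting at the 3′ end can separate the genes, although over their whole length 58.8% of Hspa1a windows occurred in Hspa1b.

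The deposited files name the genotype of every cell, and its sample is not recorded, so CKO and Control are each a single pool and no replicate spread can be given. No difference below was tested, and the exact 95% intervals cover counting error alone. The CKO pool held 884 neurons with 37482099 UMIs (median 44120.5 a cell), and the Control pool 1070 neurons with 40734464 UMIs (median 38085). The barcodes run through the alphabet 5 times from first column to last, which marks 5 stretches, 1, 3 and 4 of CKO cells (355, 372 and 157) and 2 and 5 of Control cells (482 and 588). They are given to show the spread within a genotype, and no source used here says that they are the samples. One barcode occurred in 2 stretches. Neuron classes were set in order from genes outside the 10, as type II at 1 or more UMIs per 10000 of Dupd1, then type Ic at 3 or more of Lypd1, then type Ia at 150 or more of Calb2, and type Ib for the rest. Types Ia, Ib and Ic are the type I neurons that contact inner hair cells, and type II neurons contact outer hair cells. The cut gave 152 type II, 384 type Ia, 216 type Ib and 132 type Ic neurons in CKO, against 119, 242, 395 and 314 in Control. Type Ia made up 47.0%, 53.2% and 12.1% of CKO stretches 1, 3 and 4, against 10.8% and 32.3% of Control stretches 2 and 5, so stretch 4 stood apart from the other CKO stretches and near Control stretch 2. Not all listed markers outside the cut followed the classes. For type II, Th and Plk5 did (3.98 and 3.51 UMIs per 10000 in CKO type II, against at most 0.0133 and 0.0436 in any type I class of either genotype), but Smad3 was lower there (0.00303 in CKO type II, against 0.0237 to 0.0512 in the CKO type I classes) and Etv4 was at 0 in CKO type II. Of the type Ia markers, B3gat1 was highest in type Ia (2.11 in CKO and 2.02 in Control), while Rxrg and Pcdh20 were higher in type II than in type Ia of both genotypes (in Control, 0.565 and 2.25 in type II, against 0.507 and 0.438 in type Ia). Ttn was highest in type Ib (0.792 in CKO and 1.27 in Control) and Pou4f1 in type Ic (1.03 in CKO and 1.17 in Control). Runx1 RNA was 1.68 UMIs per 10000 in CKO and 1.23 in Control, and since 3′ tags need not lie in the deleted part, this does not check the deletion. RNA of Schwann and satellite glia (11 of 12 listed markers measured, with Gjb6 not among the measured genes) summed to 34.8, 31.4 and 29.3 UMIs per 10000 in CKO stretches 1, 3 and 4, against 32.4 and 38.0 in Control stretches 2 and 5. S100b alone gave 10.7 in CKO and 10.9 in Control, at 11.5 to 13.1 in each type I class.

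Egr1 and Atf3 were lower in CKO neurons by 2-fold or more, the furthest of the 9 genes that reached a mean of 0.02 UMIs per 10000. In the GENCODE annotation of GRCm38, Egr1 spans chr18:34859823-34864984 (plus strand) and Atf3 chr1:191170296-191218039 (minus strand). Egr1 averaged 0.0228 UMIs per 10000 in CKO, with 90 UMIs, against 0.108 in Control, with 420 UMIs (ratio of pooled UMI rates 0.233, exact 95% interval 0.183 to 0.293). Its level was 0.0190, 0.0127 and 0.0551 in CKO stretches 1, 3 and 4, against 0.149 and 0.0742 in Control stretches 2 and 5. All 3 CKO stretches lay below both Control stretches, as they did for 11.9% of 11418 genes, with stretch 4 the nearest to them. Atf3 averaged 0.0428 in CKO (153 UMIs) and 0.145 in Control (578 UMIs), a rate ratio of 0.288 (0.239 to 0.344). Its stretch levels were 0.0340, 0.0183 and 0.121 in CKO, against 0.180 and 0.117 in Control. Here CKO stretch 4 lay just above Control stretch 5, so the genotypes overlapped, and without stretch 4 the ratio of mean levels was 0.179, against 0.294 with it. The same ratio for Egr1 was 0.146 without stretch 4 and 0.210 with it.

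Read against all genes, 2 of the 9 members that reached a mean of 0.02 UMIs per 10000 in either genotype were at least 2-fold lower in CKO, against 0.587% of 11418 genes, and 0 were at least 2-fold higher, against 0.709%. This cut was chosen after the values were seen. Fosb, with 35 UMIs in all, did not reach it. By the stricter rule, at least 1.5-fold apart on log2((CKO + 0.1)/(Control + 0.1)) at a mean of 0.2, Jun and Jund alone were abundant enough to be read, and 0 of these 2 were called higher, against 0.389% of 6678 genes, and 0 lower, against 0.509% (0.898% in either direction). On that scale Egr1 was at -0.76 and Atf3 at -0.78, and the added 0.1 pulls such low genes toward 0. Of the 9 members, Egr1 alone had all CKO stretches below both Control stretches, where 11.9% of genes did. Jund alone had them all above, where 6.78% did. For 9 members, a count of 1 is near either share.

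**Figure D1:**
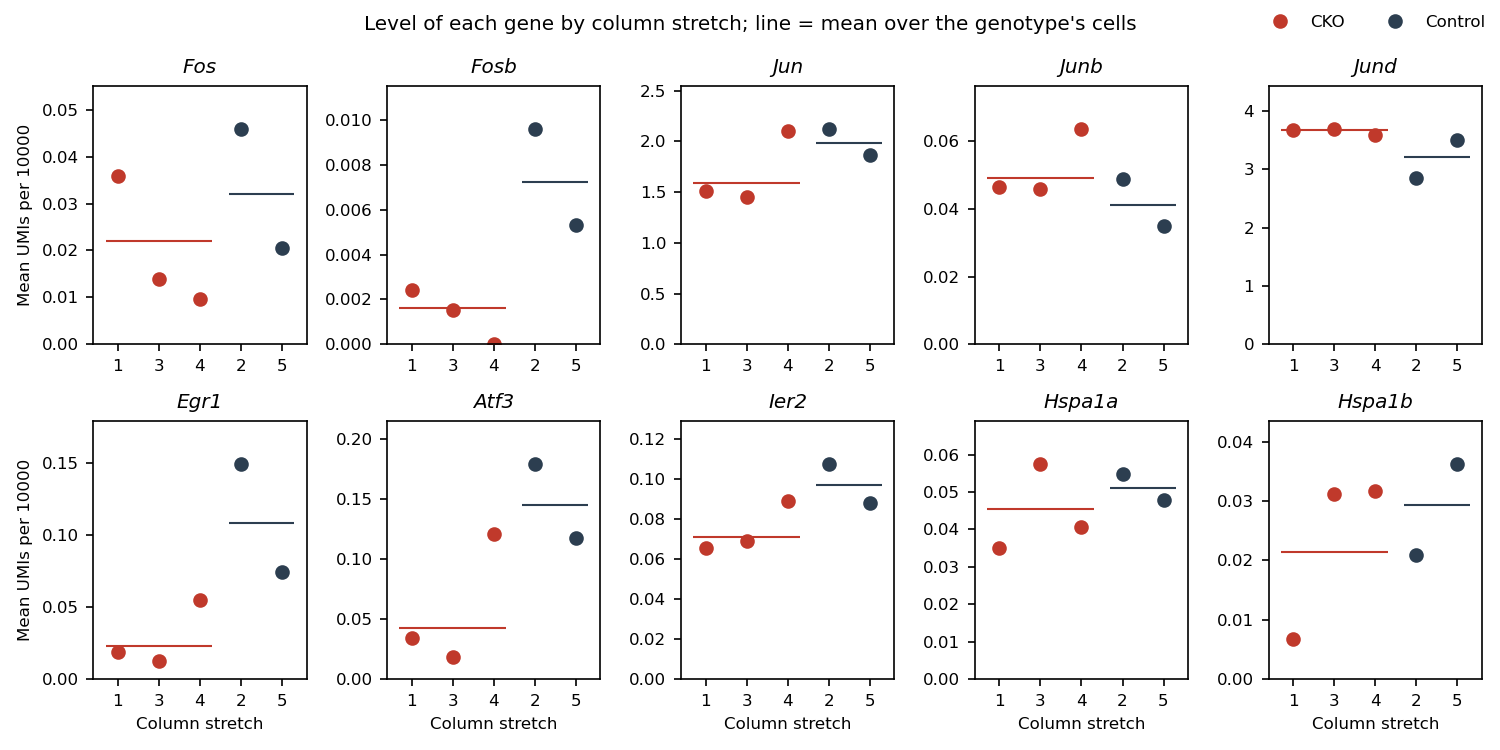
Mean level of each of the 10 genes (UMIs per 10000, linear axes from 0) in the 5 column stretches, CKO stretches 1, 3 and 4 left of Control stretches 2 and 5, with lines at the mean over each genotype's cells. Egr1 is below both Control stretches in every CKO stretch (0.0127 to 0.0551 against 0.0742 and 0.149), as were 11.9% of genes. CKO stretch 4 reaches the Control range for Atf3 and Jun.

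The lower Egr1 and Atf3 of the CKO pool were seen within types Ib and Ic, the classes that carried most of their RNA. In type Ib neurons Egr1 averaged 0.0473 in CKO and 0.181 in Control (rate ratio 0.291, 0.207 to 0.400), and in type Ic neurons 0.0649 in CKO and 0.139 in Control (0.510, 0.348 to 0.732). Its type Ib levels were 0.0306, 0.0210 and 0.104 in CKO stretches 1, 3 and 4, against 0.240 and 0.136 in Control stretches 2 and 5, and its type Ic levels 0.0740, 0.0889 and 0.0450 in CKO, against 0.162 and 0.105 in Control. Neither class overlapped. Atf3 averaged 0.0566 in CKO type Ib and 0.173 in Control type Ib (0.323, 0.232 to 0.442), and 0.139 in CKO type Ic and 0.259 in Control type Ic (0.481, 0.365 to 0.626). By stretch it was 0.0404, 0.0203 and 0.125 in CKO type Ib, against 0.193 and 0.158 in Control type Ib. In type Ic it was 0.104, 0.0853 and 0.197 in CKO, against 0.274 and 0.238 in Control. Within a class, then, the Atf3 stretches did not overlap either. All CKO stretches lay below both Control stretches in types Ib and Ic at once for 2 of 9 members, Egr1 and Atf3, against 3.49% of genes.

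Type Ia neurons held little Egr1 or Atf3 RNA in either genotype. Egr1 gave 7 UMIs in 384 CKO type Ia neurons and 1 UMI in 242 Control ones, a ratio of rates of 4.17 with an interval from 0.535 to 188, too wide to read a direction. Atf3 gave 35 UMIs in CKO type Ia and 26 in Control type Ia (0.801, 0.469 to 1.39). Set against types Ib and Ic together, the type Ia rate of Egr1 was 0.0632 times theirs in CKO (0.0246 to 0.136) and 0.00556 times in Control (0.000140 to 0.0311), and that of Atf3 was 0.222 times in CKO and 0.110 times in Control. Type Ia lay at least 2-fold below types Ib and Ic in both genotypes for 3 of 9 members, Egr1, Atf3 and Junb, by ratios of mean levels, against 2.26% of 11178 genes, and at least 2-fold above for 0, against 0.42%. Junb in CKO only just passed, at 0.499, and by pooled rates it was 0.584 (0.388 to 0.874). Since type Ia neurons were 43.4% of CKO and 22.6% of Control cells, the class shares enter the pool means. With the 4 classes weighted equally, the CKO to Control ratio of mean levels was 0.358 for Egr1 and 0.469 for Atf3.

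**Figure D2:**
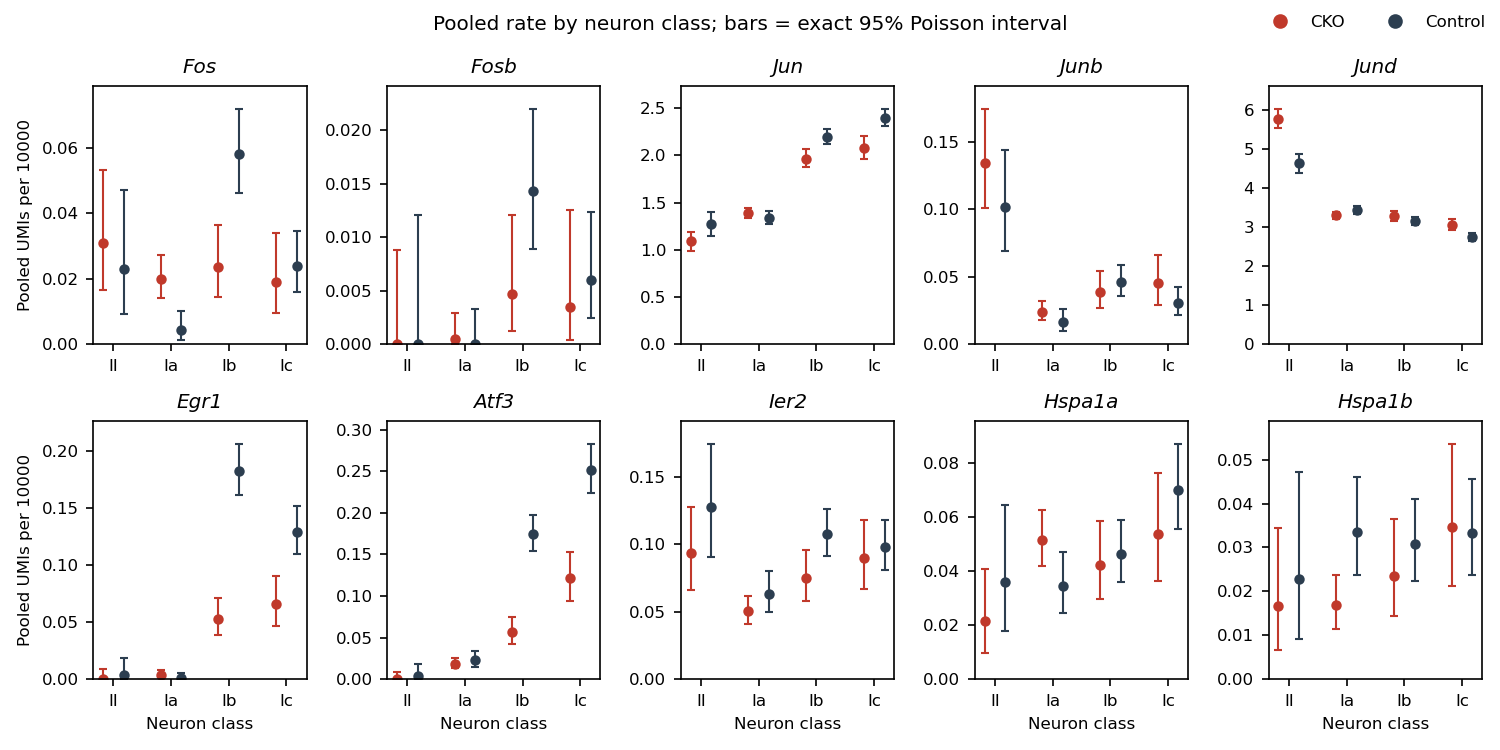
Pooled UMIs per 10000 of each gene (vertical axes, linear, from 0) by neuron class (horizontal axes), CKO left of Control within each class, with exact 95% Poisson intervals. Egr1 and Atf3 are lowest in types II and Ia of both genotypes and lower in CKO than in Control in types Ib and Ic, while Junb and Jund are highest in type II.

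The class cut at 150 of Calb2 is arbitrary, so type I neurons were also ordered by their own level of Calb2, the calcium-binding calretinin. Egr1 was lowest at high Calb2 in both genotypes. In CKO its mean was 0.0652 below 10 UMIs per 10000 of Calb2 (79 cells), 0.0642 from 10 to 50 (88), 0.0801 from 50 to 100 (82), 0.0143 from 100 to 150 (99), 0.00822 from 150 to 200 (105) and 0.00169 above (279). In Control the means were 0.141 (215 cells), 0.218 (270), 0.129 (173), 0.0735 (51), 0.00394 (52) and 0, with 0 UMIs in the last 190 cells. CKO was lower in each bin below 150, and above it both genotypes were at 0.00822 or less. Atf3 ran 0.157, 0.111, 0.0566, 0.0388, 0.0273 and 0.0155 over the same bins in CKO, against 0.310, 0.177, 0.165, 0.132, 0.0206 and 0.0232 in Control. At matched Calb2 below 150 the ratio of UMI rates was 0.324 to 0.590 for Egr1 and 0.280 to 0.615 for Atf3, and each of those intervals stayed below 1.

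**Figure D3:**
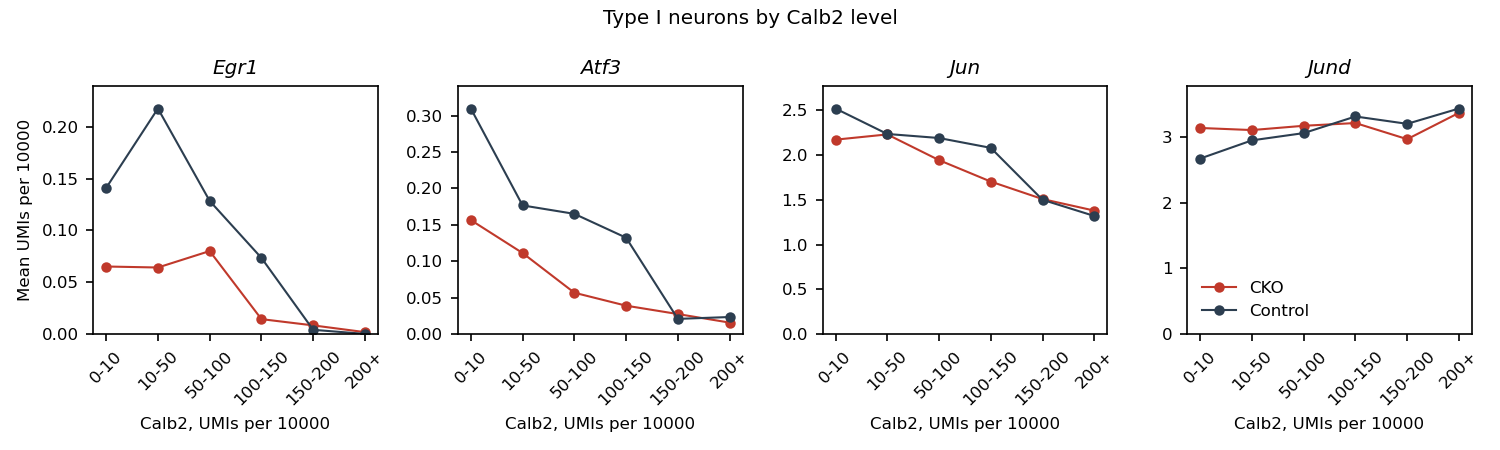
Mean level of Egr1, Atf3, Jun and Jund (UMIs per 10000, linear axes from 0) in type I neurons grouped by their Calb2 level, CKO in red and Control in dark blue. Egr1 and Atf3 are lower in CKO in every bin below 150 and low in both genotypes above it, and Jun falls with Calb2 by less, while Jund stays near 3.

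Jun, the AP-1 partner that rises with Atf3 in injured sensory neurons, was detected in 1887 of 1954 neurons, so its RNA was present in nearly every cell. It averaged 1.59 UMIs per 10000 in CKO and 1.98 in Control, a log2 value of -0.30 and a rate ratio of 0.818 (0.791 to 0.846). Stretch levels were 1.51, 1.45 and 2.10 in CKO stretches 1, 3 and 4, against 2.12 and 1.86 in Control stretches 2 and 5, so the genotypes overlapped through stretch 4. Among type I classes Jun was also lowest in type Ia, with smaller steps, at 1.41 in CKO type Ia and 1.36 in Control type Ia, 1.94 and 2.21 in type Ib, and 2.11 and 2.42 in type Ic, CKO first in each pair. The type Ia ratio was 1.04 (0.974 to 1.11), that in type Ib 0.894 (0.843 to 0.949) and that in type Ic 0.868 (0.811 to 0.929).

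Jund, the family member that is made constitutively in many cells, was detected in 1949 of 1954 neurons and differed little between genotypes. It averaged 3.66 in CKO, against 3.21 in Control (log2 0.19), and the interval of the rate ratio ran from 1.07 to 1.12. Its stretch levels were 3.68, 3.69 and 3.59 in CKO, against 2.85 and 3.50 in Control, with CKO above throughout, as for 6.78% of genes. In type I neurons alone they overlapped, at 3.19, 3.19 and 3.29 in CKO and 2.62 and 3.35 in Control. Type II neurons, where Jund was highest, made up 17.2% of CKO and 11.1% of Control cells. Within type II the level was 5.86 in CKO and 4.59 in Control (rate ratio 1.25, 1.17 to 1.33), and the stretches did not overlap, at 6.15, 5.80 and 5.31 in CKO against 4.18 and 5.22 in Control. The gap between CKO stretch 4 and Control stretch 5 there was small. Type II stretches also did not overlap for Junb, higher in CKO, and for Hspa1a, lower in CKO. The share of all genes with such type II stretches is not given, so these cannot be read as particular to the members. Junb, an AP-1 member that can restrain Jun, averaged 0.0493 in CKO and 0.0411 in Control, and its rate ratio of 1.14 had an interval of 0.905 to 1.43 that includes no difference.

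Fos and Fosb were rare. Fos, the classical marker of recent neuronal activity, was seen without thinning in 62 CKO neurons (7.01%) and 63 Control neurons (5.89%). It averaged 0.0220 in CKO and 0.0319 in Control (rate ratio 0.713, 0.533 to 0.949), but its stretch levels were 0.0359, 0.0139 and 0.00972 in CKO, against 0.0459 and 0.0205 in Control. The genotypes overlapped. The ratio of mean levels was 0.689, and single stretches moved it both ways, to 1.07 without Control stretch 2, 0.480 without Control stretch 5 and 0.397 without CKO stretch 1, so the direction rests on Control stretch 2. Fos also varied with glial RNA. In neurons with a glial marker sum (S100b left out) of 5 or more UMIs per 10000 it was 0.0332 in CKO and 0.0355 in Control, and below 5 it was 0.00788 in CKO and 0.0264 in Control, a ratio of 0.299. The part of glial RNA in the Fos values was not tested. Among classes the ratio ran both ways. In type Ia there were 38 Fos UMIs in CKO and 5 in Control (rate ratio 4.52, 1.78 to 14.7), and in type Ib 20 in CKO and 85 in Control (0.406, 0.236 to 0.666). The type Ia levels were 0.0291, 0.0130 and 0.00914 in CKO stretches 1, 3 and 4, against 0.0130 and 0.00202 in Control stretches 2 and 5. For Fosb, a longer-lived relative of Fos, 7 UMIs were counted in CKO and 28 in Control, a rate ratio of 0.272 whose interval reached up to 0.637. Ier2, an early growth factor response gene, averaged 0.0710 in CKO and 0.0968 in Control (0.710, 0.603 to 0.835). Its levels were 0.0653, 0.0689 and 0.0890 in the CKO stretches against 0.108 and 0.0880 in the Control stretches, again overlapping through stretch 4. In type I neurons alone they did not overlap, at 0.0569, 0.0649 and 0.0845 in CKO and 0.101 and 0.0874 in Control. Types Ic and II overlapped. The share of all genes with such type I stretches is not given.

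The HSP70 pair gave few UMIs in each genotype, and over all cells the stretches of the genotypes overlapped for both genes. Hspa1a averaged 0.0455 in CKO (174 UMIs) and 0.0510 in Control (200 UMIs), a rate ratio of 0.945 with an interval of 0.767 to 1.16. Its stretch levels overlapped, at 0.0351, 0.0575 and 0.0405 in CKO and 0.0547 and 0.0480 in Control. Hspa1b averaged 0.0215 in CKO (79 UMIs) and 0.0293 in Control (129 UMIs), with a ratio of 0.666 (0.496 to 0.887). Its stretch levels were 0.00677, 0.0311 and 0.0317 in CKO, against 0.0208 and 0.0362 in Control, so CKO stretch 1 was lowest and the others mixed. Without that stretch the ratio of mean levels was 1.07. Together the pair was seen in 485 neurons (24.8%), and the most in 1 cell was 4 UMIs of Hspa1a. Hspa1b varied with glial RNA in both genotypes, and Hspa1a in CKO. In neurons with a glial marker sum, S100b left out, of 5 or more UMIs per 10000, Hspa1b was 0.0309 in CKO and 0.0409 in Control, and below 5 it was 0.00949 in CKO and 0.0109 in Control. Hspa1a was 0.0566 and 0.0314 in CKO neurons above and below that sum, and 0.0522 and 0.0491 in Control neurons. The part of glial RNA in these levels was not tested.

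Glial RNA was also set beside Egr1 and Atf3, by the glial marker sum without S100b. The share of neurons at 5 or more was 49.9%, 65.1% and 47.1% in CKO stretches 1, 3 and 4, against 49.0% and 71.3% in Control stretches 2 and 5. In the 391 CKO and 415 Control neurons below 5, Egr1 averaged 0.0114 in CKO and 0.110 in Control (at 5 or more, 0.0317 in CKO and 0.107 in Control), and Atf3 0.0465 in CKO and 0.146 in Control, ratios of 0.104 and 0.318 against 0.210 and 0.294 in all cells. Of the neurons below 5, at least 91 in CKO and 72 in Control were type II, a class with little Egr1 or Atf3. Class shares therefore enter these ratios. The part of glial RNA in the Egr1 and Atf3 values was not tested. The macrophage markers Csf1r and Aif1 summed to at most 0.0224 in any stretch. The other 6 of that list, with all 6 listed endothelial markers, were not among the measured genes.

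Type II neurons differed from type I neurons in opposite directions among the 10 genes. Egr1 gave 0 UMIs in 152 CKO type II neurons, where 3 UMIs would be a rate of 0.00718 per 10000, and 1 UMI in 119 Control ones, against mean levels of 0.0275 in CKO type I and 0.121 in Control type I neurons. Atf3 gave the same 0 and 1 UMIs in type II, against 0.0517 in CKO type I and 0.163 in Control type I. Because type II cells were shallower (median 27102 UMIs in CKO and 25326 in Control, against 47501 and 39393 in type I), each cell was also thinned to 10000 UMIs. An Egr1 UMI was then found in 0 of 152 CKO type II neurons, which allows up to 1.97%, against 2.05% of CKO type I neurons, a difference not detectable at this depth. In Control it was 0 of 119, which allows up to 2.52%, against 6.73% of type I, and Atf3 gave 0 of 152 in CKO type II against 5.33% of CKO type I, and 0.840% against 12.2% in Control. Without thinning, Egr1 was found in 6.15% of CKO and 15.0% of Control type I neurons. Type II held 1 Egr1 UMI in all its cells, but no class here is known to lack Egr1, so this does not set a background share.

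Junb and Jund went the other way. Junb averaged 0.137 in CKO type II and 0.0990 in Control type II, and its type II to type I rate ratio was 4.25 in CKO (3.02 to 5.93) and 3.11 in Control (2.02 to 4.64). For Jund this ratio was 1.77 in CKO (1.70 to 1.85) and 1.49 in Control (1.41 to 1.57). Jun was lower in type II, with a ratio of 0.657 in CKO and 0.636 in Control. Of the 9 members, 1 (Junb) was at least 2-fold above type I in both genotypes, against 14.1% of 11885 genes, and 2 (Egr1 and Atf3) were at least 2-fold below, against 11.5%. Type II lay above type I in all 5 stretches for 3 members (Junb, Jund and Ier2), where 31.8% of genes did, and below for 4 (Jun, Egr1, Atf3 and Hspa1a), where 29.5% did. With 9 members, none of these counts stands clear of the share of all genes.

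Across single cells, Egr1 was concentrated in few neurons and Atf3 in part, while Fos was mostly at 1 UMI in the few neurons that had it. Egr1 was seen in 189 cells, 87 of them with 1 UMI and 33 with 5 or more, up to 12 in a cell. Atf3 was seen in 430 cells, 277 of them with 1 UMI and 19 with 5 or more, and reached 14 UMIs. Fos was seen in 125 cells, 87 of them with 1 UMI and 4 with 5 or more, and also reached 14. Junb (220 of 261 positive cells at 1 UMI), Ier2 (388 of 496), Hspa1a (299 of 332) and Hspa1b (179 of 193) were spread thinly, and Jun and Jund were in nearly every cell. Median correlations over type I neurons within stretches, which share depth and library, ran from -0.04 to 0.24 among the 10 genes. The highest were Egr1 with Fosb and with Fos, both 0.24, and that of Hspa1a with Hspa1b was 0.02. All are weak, in sparse counts.

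Among neurons with a Fos UMI, those with Egr1 or Npas4 were a smaller share in CKO than in Control. No class here is known to lack Fos, so a background share cannot be set. A Fos UMI was found in 6.58% of CKO type II and 7.10% of CKO type I neurons, and in 4.20% of Control type II and 6.10% of Control type I neurons, and 87 of the 125 cells held 1 UMI. Of the 63 Control neurons with a Fos UMI, 37 also had Egr1, or 58.7% (45.6 to 71.0), and of the 62 CKO neurons with Fos 9 did, or 14.5% (6.86 to 25.8). Neurons without Fos had Egr1 in 4.38% of CKO and 10.6% of Control cells. Npas4, an activity factor induced by calcium in neurons, was found in 0 of 62 CKO Fos neurons, which allows a share of up to 4.84%, and in 17 of 63 Control Fos neurons (27.0%). For Fosb the counts were 0 of 62 in CKO, with the same allowance, and 11 of 63 (17.5%) in Control. Ier2 was found in 27.4% of CKO and 49.2% of Control Fos neurons, Atf3 in 12.9% and 47.6%, and the MAP kinase phosphatase gene Dusp1 in 29.0% and 50.8%, whereas Junb was at 22.6% and 25.4%, CKO first in each pair. CKO Fos neurons were the deeper ones, with a median of 49671.5 UMIs against 38561 in Control. Their classes differed too, with 29 of 62 in type Ia in CKO and 5 of 63 in Control. Within types Ib and Ic, Egr1 was found in 7 of 23 CKO Fos neurons (30.4%, 13.2 to 52.9) and in 37 of 53 Control Fos neurons (69.8%, 55.7 to 81.7). Npas4 was found there in 0 of 23, which allows up to 13.0%, and in 17 of 53 (32.1%). By stretch, Egr1 was found in 6 of 40, 1 of 17 and 2 of 5 Fos neurons in CKO stretches 1, 3 and 4, against 20 of 33 and 17 of 30 in Control stretches 2 and 5. In neurons with more than 1 Fos UMI, Egr1 was found in 3 of 15 in CKO (4.33 to 48.1%) and 20 of 23 in Control (66.4 to 97.2%), and with 1 Fos UMI in 6 of 47 in CKO (4.83 to 25.7%) and 17 of 40 in Control (27.0 to 59.1%). Of the Fos neurons, 52 of 62 in CKO and 46 of 63 in Control had a glial sum of 5 or more, and in those Egr1 was found in 7 of 52 in CKO and 25 of 46 in Control. Below 5 it was 2 of 10 in CKO and 12 of 17 in Control. These pairings and splits were examined after other values had been seen.

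**Figure D4:**
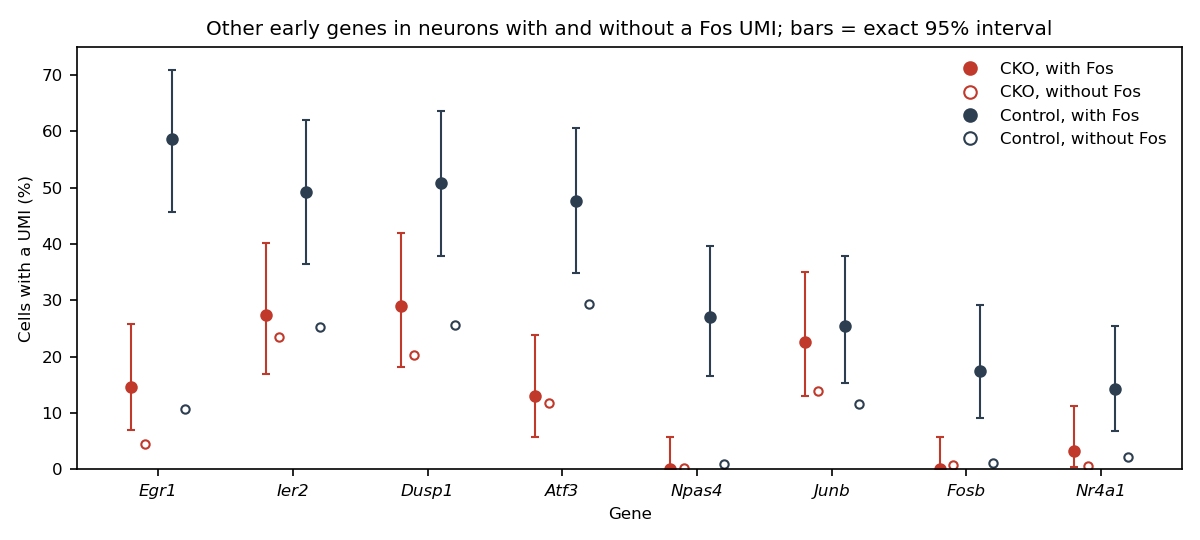
Share of neurons (percent, linear axis from 0) with a UMI of each named gene, among neurons with a Fos UMI (filled points with exact 95% intervals) and without one (open points), CKO in red left of Control in dark blue. Control Fos neurons stand high for Egr1 (58.7%), Npas4 (27.0%) and Fosb (17.5%), where CKO Fos neurons are at 14.5%, 0% and 0%. The genotypes are close for Junb, and the shares are not thinned.

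None of the other early genes that were abundant enough to be read passed the 1.5-fold rule. Of 40 other immediate early genes listed, 36 were measured and 8 reached a mean of 0.2, with 0 called in each direction and a median log2 of 0.07, against -0.03 over all 6678 genes. The most counted were Rhob, a small GTPase gene, at 0.785 in CKO and 0.771 in Control, and Btg1, an antiproliferative gene, at 0.515 in CKO and 0.618 in Control, then Gadd45g at 0.414 and 0.388 and Mcl1 at 0.354 and 0.329, CKO first. Among the rarer ones outside that rule, picked out after their values were seen, Npas4 gave 1 UMI in CKO and 57 in Control (rate ratio 0.0191, 0.000474 to 0.111). The CKO UMI lay in stretch 1, and stretches 3 and 4 had 0, while Control stretches 2 and 5 had 31 in 12 cells and 26 in 14 cells. Of the 57, 52 were in type Ib neurons. Nr4a1, an orphan nuclear receptor gene induced by activity, gave 7 UMIs in CKO and 38 in Control (interval of the rate ratio 0.0754 to 0.454). Arc, an activity gene that acts at synapses, gave 87 in CKO and 112 in Control (0.844, 0.631 to 1.13). Other rare genes of the list, also picked out after their values were seen, were higher in CKO. Klf2 gave 16 UMIs in CKO and 5 in Control (rate ratio 3.48, 1.22 to 12.1). Sik1 gave 107 in CKO and 80 in Control (1.45, 1.08 to 1.97), and was highest in type II of both genotypes (0.189 in CKO and 0.161 in Control). The rare early genes thus had no common direction.

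No partner or inducer of these factors passed the 1.5-fold rule, although most inducers were slightly lower in CKO. Of 13 AP-1 partner and related bZIP genes, 12 were measured, 7 reached a mean of 0.2 and 0 were called in each direction (median log2 -0.08). Atf4 was 1.19 in CKO and 1.60 in Control, Mafg 0.951 and 0.837, and Jdp2, a Jun dimerization partner, 0.533 and 0.375, CKO first. The lowest ratio was that of Atf5, picked out after its values were seen, at 0.196 in CKO and 0.320 in Control (log2 -0.50). All 28 listed kinases and factors upstream of the response were measured, 16 reached 0.2 and 0 were called (median log2 -0.17). Of these 16, 14 were below 0 on the log2 scale, where 58.5% of the 6678 genes were, and the furthest was Mef2c, a calcium-regulated factor also picked out after its values were seen, at 0.385 in CKO and 0.574 in Control (log2 -0.47). Mef2c was 0.142 in CKO and 0.281 in Control in type Ia, which was a larger share of CKO cells. It was 0.346 and 0.548 in type Ib, 0.707 and 0.771 in type Ic, and 0.776 and 0.738 in type II. The part of class shares in these pool values was not tested. The most counted of the 28 were the JNK gene Mapk10 (3.50 in CKO, 4.02 in Control), Mef2a (2.18 and 2.21), the ERK gene Mapk3 (1.16 and 1.25) and Map2k4 (1.11 and 1.17). Of 40 other chaperone genes, 37 reached 0.2, 0 were called higher and 1 lower (median log2 0.05). That 1 was Hspb8, a small heat shock protein gene, at 0.234 in CKO and 0.429 in Control and a log2 value of -0.66, with 0.143, 0.213 and 0.491 in the CKO stretches against 0.476 and 0.391 in the Control stretches, an overlap through stretch 4. Hspa8, the constitutive relative of Hspa1a, was at 30.4 in CKO and 31.7 in Control, chosen for that relation.

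Of 23 axon injury genes, 17 were measured and 8 reached 0.2, with 0 called (median log2 0.05). They were led by Stmn2 (10.2 in CKO, 9.79 in Control), Tubb3 (9.30 and 10.7), Stmn4 (1.41 and 1.37) and Lifr (1.13 and 0.982). Of 15 oxidative stress genes, all measured, 12 reached 0.2 and 0 were called (median log2 -0.02). Gpx4 was 10.6 in CKO and 11.2 in Control, the metallothionein gene Mt1 4.47 and 4.17, and the superoxide dismutase genes Sod2 3.13 and 3.05 and Sod1 1.93 and 1.96.

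Across type I neurons within a stretch, the gene whose level ran most like the mean of 7 early genes (Fos, Fosb, Jun, Junb, Egr1, Atf3 and Ier2) was Dusp1, with a median correlation of 0.28 over the 5 stretches (134 to 541 neurons each). Others among the 10 most alike were Ywhah (0.28), Vsnl1 (0.27), Dnm3 (0.26), Tgfb2 (0.24), Lypd1 (0.24), Gm4980 (0.24), Rbfox3 (0.24) and Cpne6 (0.24). All of those named had a lower mean in type Ia than in type Ic in both genotypes, as Lypd1 does by the class rule. For the summed HSP70 pair the 10 were Ptgds (0.18), S100a1 (0.17), Mt2 (0.16), Lap3, Igfbp6, Crip2, Prkcdbp, Art3, Ahnak and S100a6, at 0.14 to 0.15 from Lap3 on. These correlations are descriptions over cells that share library and depth, and the second set is weak.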

How the data were processed

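Single neurons were sequenced from 3 CKO and 2 Control samples. Cell Ranger, Seurat and the build mm10 are named in the submitters' processing notes, without versions or roles. The deposited matrix holds 14715 genes for 1954 cells; from its values, the authors took the natural log of 1 plus a gene's UMIs per 100000 of the cell. Filters on cells and genes and the handling of doublets are not given in the sources used here. Depth ran from 10379 to 100856 UMIs a cell. From the deposited natural log values, 100% of UMI counts came out whole within 0.01. The planned edgeR test needed cells assigned to samples, which the bare barcodes do not give, so pools were described without a test. A level is the mean over cells of UMIs per 10000, and a rate ratio divides pooled UMIs by pooled totals. Intervals are exact at 95% (Poisson, Clopper-Pearson, or conditional for ratios), and limits at 0 use 3 counts. Shares of Egr1 and Atf3 in type II and type I neurons were thinned to 10000 UMIs, except where said otherwise. For Fos both kinds of share are given by type. The other shares of cells with a UMI were not thinned.

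The 10 genes, the lists, the classes and the tests were chosen with earlier results of these data known. Named genes are the 10, called members of each list or else its 4 most counted, and the 10 genes most like each group by correlation; others are said to be chosen after their values were seen. One gene that this rule names is not reported here. Gene positions came from GENCODE and promoters from RefSeq. Interval code was tested on simulated data. Python 3.11.15, numpy 2.4.6, pandas 2.3.3, scipy 1.17.1 and matplotlib 3.10.9 were used.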

Additional observations from a re-analysis of the deposited data

How the results depend on the processing

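Egr1 and Atf3 kept a lower mean in CKO under each alternative that gave both genotypes RNA, with ratios of means from 0.104 to 0.358 for Egr1 and from 0.179 to 0.469 for Atf3. The exception was the glial filter with S100b counted, which left 97 CKO and 77 Control cells, 91 and 72 of them type II, where Egr1 was listed at 0 in both and Atf3 at 0 in CKO and 0.0148 in Control. There, among genes that reached a mean of 0.02, the number of members at least 2-fold lower in CKO was 1, Hspa1a, at 0.0118 in CKO and 0.0385 in Control. All type II neurons together held 9 Hspa1a UMIs in CKO and 11 in Control, so this ratio rests on few counts. The share of all genes called at this setting is not given. Without any filter on low levels, 2 of the 10 were at least 1.5-fold apart, against 0 with the filter. Among the 14715 genes, 36 were then higher and 44 lower in CKO. With the filter, 26 of 6678 genes were at least 1.5-fold higher and 34 lower in CKO. The higher count was 54 with a pseudocount of 0.01 and 12 with 0.5, and the lower count 5 with 0.5. A mean of 0.5 gave 19 lower, and equal class weights 8. The glial filter gave 80 higher and 57 lower. Leaving out a column stretch gave 29 to 83 higher and 20 to 80 lower; in order, 29 higher and 20 lower without stretch 1, 55 higher and 20 lower without stretch 2, 52 higher without stretch 3, 41 higher and 55 lower without stretch 4, and 83 higher and 80 lower without stretch 5. The cause was not tested. No paired analysis was possible because the columns carry no sample or replicate number. Depth limits Fosb, the HSP70 pair and every type II value of Egr1 and Atf3.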
